A study of Saccharomyces cerevisiae with 117 samples.

Results

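GRE1 (YPL223C), SIP18 (YMR175W), HSP12 (YFL014W) and SPI1 (YER150W) are small stress-inducible genes of Saccharomyces cerevisiae. They were picked by their systematic names, 4 of the 6420 gene entries counted in each cell. Hydrophilins are small, glycine-rich, very hydrophilic proteins that yeast makes when water or nutrients run short, and some of them protect membranes and enzymes during drying. GRE1 and SIP18 are paralogs left by the ancient genome duplication, and SIP18 is known for survival of desiccation and rehydration. HSP12 encodes a small membrane-associated hydrophilin and is a classic target of the stress factors Msn2 and Msn4, which protein kinase A holds back in rich glucose. SPI1 encodes a wall mannoprotein with a glycosylphosphatidylinositol (GPI) anchor, is known from resistance to weak acids, and has SED1 as its paralog.

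Each library came from 1 spheroplast of the haploid laboratory strain S288C, all from 1 clone grown to log phase in rich medium and stripped of the wall with Zymolyase in S medium (2% glucose, amino acids, 1 M sorbitol). Spheroplasts then stayed in S medium (isotonic) or were moved to the same medium lacking amino acids (amino acid starvation, AAS), lacking glucose (glucose starvation, GS) or lacking sorbitol (hypotonic). The labels give an exposure of 30 min to 5 h, the study's methods give a shorter upper limit, and neither says how long a given cell was exposed. Of 117 cells, the 84 that the study kept were used: in batch 1, 16 isotonic, 18 AAS and 12 hypotonic cells, and in batch 2, 17 isotonic and 21 GS cells. No separate cultures are named, so each group counts as 1 sample, no test was made, and the spread given is that between cells.

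Levels are in CPM, the reads of a gene per 1000000 reads on genes of its cell. Reads on genes ran from 3112955 to 55179414 per cell in batch 1 and from 14245 to 2535593 in batch 2. AAS cells had reads on a median of 5117.5 genes, against 4149.5 in isotonic and 3255 in hypotonic cells of batch 1, and GS cells on 1332, against 1047 in isotonic cells of batch 2. The part of these gaps in the results below was not tested. Shares of cells at an equal number of reads, and values in cells with many genes, are given below. Genes checked for the treatments differed between groups. The sulfate permease gene SUL1 was at 3388 ± 2089.6 CPM (SD, n = 18) in AAS against 14.6 ± 25.4 (n = 16) in isotonic cells, and the glyoxylate cycle gene ICL1 at 2502 ± 3538 (n = 21) in GS cells and at 0 reads in all 17 isotonic cells of batch 2. Of the 4 treatment genes checked, 3 were at least 2-fold higher in AAS, and 1 was higher and 2 lower in hypotonic cells. In GS, 3 of the 3 tested were higher. Of these, 2, ICL1 among them, had 0 isotonic reads and could only come out higher. The other was SUL1, whose log2 value of 6.26 in GS was -0.30 with each group's top cell left out. The higher one in hypotonic cells was again SUL1, at 657 ± 829.8 CPM (n = 12, log2 5.40), so it did not mark AAS alone. Of the 3 alpha mating type markers, STE3 was higher in AAS (log2 1.03) and lower in GS (-5.94), and 0 differed by 2-fold in hypotonic cells. Of the a markers, 2 were tested in batch 1 and 0 in batch 2, with STE2 higher in AAS (2.84). In hypotonic cells STE2 was at 1.87 and MFA2 at -1.12, but at -0.45 and -0.29 with each group's top cell left out.

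All 4 genes are single-exon reading frames in the R64 assembly. GRE1 lies at chrXVI:128632-129138 on the minus strand, SIP18 at chrXIII:611016-611255, HSP12 at chrVI:107256-107585 and SPI1 at chrV:468370-468816, the last 3 on the plus strand. None overlaps another annotated gene on either strand. The nearest neighbour on the same strand is YMR175W-A, which starts 58 bp after SIP18, and its mean was 1.88 CPM in AAS and 0.447 CPM in GS cells. Translation of the reading frames set 3 of the 4 proteins apart from most of the proteome. Gre1 has 168 residues with 13.1% glycine, and only 3 of the 6002 nuclear proteins translated had a higher hydrophilicity index, the mean Kyte-Doolittle hydropathy with its sign turned, which was 1.85 for Gre1. Sip18, with 79 residues, had 12.7% glycine and an index of 1.55, and Hsp12, with 109 residues, had 11.9% glycine and an index of 1.21. These 3 meet the usual criteria of a hydrophilin, over 6% glycine and an index over 1, as do 75 proteins or 1.25% of all. Spi1 does not: its 148 residues hold 4.05% glycine and its index is -0.28, while serine and threonine make up 29.1% of it. SPI1 is therefore called a wall protein gene below. Gre1 and Sip18 shared 27 of 75 aligned residues, and Spi1 and Sed1 87 of 146 (59.6%).

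The stretch from 250 to 101 bases before the start codon is shown for each gene, because the 4 genes were compared as genes of the general stress response and the stress response element AGGGG is the site bound by Msn2 and Msn4. Matches to AGGGG on either strand (CCCCT on the strand shown) and to TATAAA are in capitals. The sequences are from the RefSeq copy of R64, each 5′ to 3′ on the strand of its gene: chrXVI:129239-129388 (minus), chrXIII:610766-610915 (plus), chrVI:107006-107155 (plus) and chrV:468120-468269 (plus).
GRE1: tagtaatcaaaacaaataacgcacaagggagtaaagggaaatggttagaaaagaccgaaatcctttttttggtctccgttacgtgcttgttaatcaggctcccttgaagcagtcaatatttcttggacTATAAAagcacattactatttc
SIP18: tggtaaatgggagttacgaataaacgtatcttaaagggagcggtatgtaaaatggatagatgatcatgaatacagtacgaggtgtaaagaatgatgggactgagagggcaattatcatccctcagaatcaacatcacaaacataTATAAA
HSP12: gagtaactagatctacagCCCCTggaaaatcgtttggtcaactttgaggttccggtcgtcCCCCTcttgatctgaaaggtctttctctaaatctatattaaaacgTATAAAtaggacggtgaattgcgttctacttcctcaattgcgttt
SPI1: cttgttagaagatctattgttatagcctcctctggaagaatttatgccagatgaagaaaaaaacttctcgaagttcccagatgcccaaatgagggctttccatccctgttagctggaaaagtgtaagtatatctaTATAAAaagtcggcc

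From 250 bases before to 50 after the start codon, HSP12 held 2 matches to AGGGG, with first bases at -232 and -190, and the other 3 genes held 0 in this window. Of 6007 nuclear windows of the same length, 21.6% held at least 1 match and 2.96% at least 2. TATAAA was present in all 4 windows, at -122 in GRE1, -145 in HSP12, -115 in SPI1 and at both -106 and -20 in SIP18, and in 45.2% of all windows. The heat shock element GAANNTTC (11.8% of windows), the Sko1 core TGACGT (7.56%), the Cbf1 site CACGTG (2.91%) and the Met31 and Met32 core CTGTGG (6.84%), each searched on both strands, had 0 matches in the 4 windows. Matches are letters found in a window, not sites shown to be bound.

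All 4 genes were higher in GS than in isotonic cells of batch 2, and GRE1 stood near the top of the transcriptome there. A gene was taken as tested when at least 20% of the cells compared had a read, and as higher or lower at a 2-fold difference of mean CPM after adding 1 CPM. Of 2106 genes tested, 44.1% were higher in GS by this rule and 26.2% lower. All 4 genes passed the filter and were among the higher. SIP18 had 0 isotonic reads and passed the filter through its GS cells alone, so once tested it could only be higher. GRE1 had a lowest value of 63.8, a median of 16165.5 and a highest of 27569.7 CPM over the 21 GS cells, and 0, 0 and 2356 CPM over the 17 isotonic cells. All but 3 of the GS cells lay above the highest isotonic cell. The 3 that did not were Y531 (63.8 CPM), Y521 (354) and Y516 (1390 CPM), and among the isotonic cells Y703 (2356) and Y705 (1655) held nearly all of the group's signal, the other 15 being at 22.1 CPM or less. The means were 13608 ± 8370.5 (SD, n = 21) and 238 ± 677 (SD, n = 17), a 57.2-fold ratio and a log2 fold change of 5.83. Without Y703 and Y705 the log2 value was 11.98. The GS cell was the higher one in 98.3% of all pairs of a GS and an isotonic cell, a share that only 1 of the 2106 genes exceeded, and 0.997% of genes reached 90%.

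**Figure D1:**
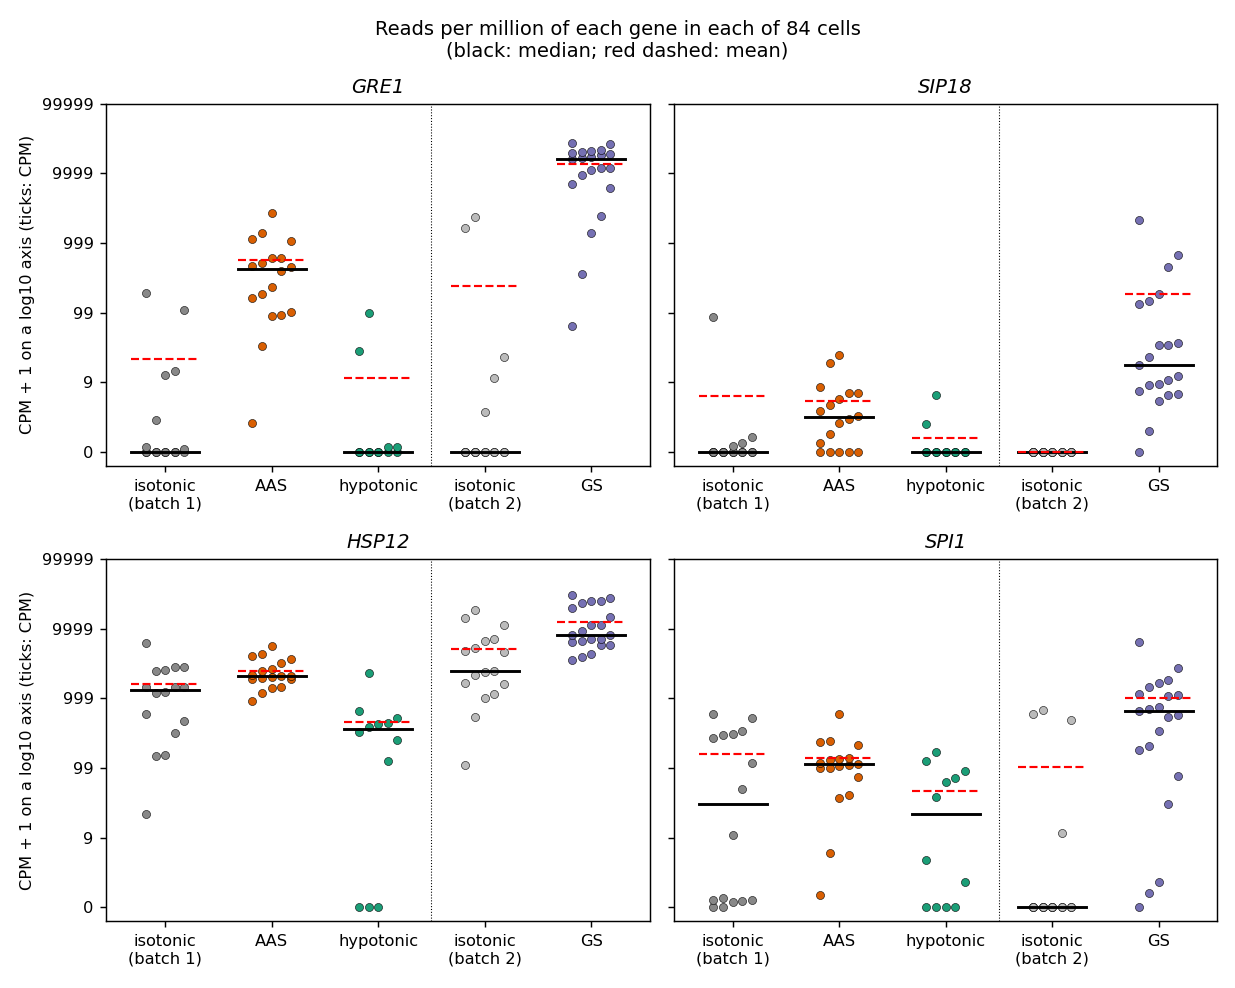
Levels of GRE1, SIP18, HSP12 and SPI1 in the 84 cells, 1 point per cell, on a log10 axis of CPM + 1 with the ticks in CPM. Black lines are medians, red dashed lines means, and the dotted line parts the batches. GRE1 medians were 426 CPM in AAS and 16165.5 in GS cells and 0 in the other 3 groups.

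SIP18, the shorter paralog, was low in most GS cells and high in a few. It ran from 0 over a median of 16.7 to 2116 CPM in the 21 GS cells, 20 of which had a read, and it had 0 reads in all 17 isotonic cells. A count of 0 of 17 cells allows a share of up to 17.6% with a read by the limit of 3 counts, and up to 19.5% by the exact interval, and the 2 isotonic cells that the study left out also had 0. Y507 (2116 CPM), Y508 (664) and Y509 (455) were the highest, and Y507 alone held 41.3% of the 5460 summed SIP18 reads. With a floor of 3 reads put in for the isotonic group, SIP18 was 389.9-fold higher in GS as a share of the summed reads. This takes each read as a separate count, which PCR reads without molecular identifiers are not, so it is no lower bound for transcripts. On medians over cells the log2 value was 4.15. The mean in GS cells was 186 ± 473 CPM (SD, n = 21), and the GS cell was the higher one in 97.6% of pairs.

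HSP12 was abundant in both groups and differed least of the 4. It ran from 3537 over 8247 to 30221 CPM in GS cells and from 111 over 2457 to 18787.5 CPM in isotonic cells, so the groups overlapped widely, with 6 of 21 GS cells above the highest isotonic cell. The means were 12656 ± 8764 (SD, n = 21) and 5067 ± 5252 CPM (SD, n = 17), 2.50-fold apart (log2 1.32), and the GS cell was higher in 81.2% of pairs. The median log2 value of all genes tested was 0.64. It moved with the scaling, to 0.23 with DESeq2 size factors on summed reads and to 3.07 per ERCC spike-in read, where 79.8% of genes were higher and 7.83% lower. HSP12 lay 0.68 above it, and 0.75 and 0.62 above it under those scalings, but with the size factors its own value of 0.98 was just under 2-fold.

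SPI1 was found in 20 of 21 GS cells and in 4 of 17 isotonic cells. It ran from 0 over 667 to 6375 CPM in GS cells, where Y524 was the highest, and from 0 over 0 to 675 CPM in isotonic cells, with Y706 (675), Y710 (591) and Y701 (493) high and the rest at 10.6 CPM or less. The means were 1027 ± 1425 (SD, n = 21) and 104 ± 232 (SD, n = 17), a 9.87-fold ratio (log2 3.29), and 89.2% of pairs had the GS cell higher. SED1, its paralog, was at 2316 ± 1535 against 2051 ± 2935 CPM (log2 0.18).

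Isotonic cells of batch 2 were shallower, with a median of 433165 reads against 1607922 in GS cells, and ERCC spike-ins took a median of 77.2% of their gene and spike-in reads against 40.5%. Thinned to 100000 reads, with 30 GS and 12 isotonic cells of all mapped cells deep enough, GRE1 had a read in 90.0% of GS cells (exact 95% interval 73.5 to 97.9%) and 41.7% of isotonic cells (15.2 to 72.3%). SIP18 had a read in 60.0% (40.6 to 77.3%) and in 0% (up to 26.5%). SPI1 had one in 80.0% (61.4 to 92.3%) and in 3 of 12 isotonic cells (5.49 to 57.2%), and HSP12 in 100% of both. Among the 20 GS and 10 isotonic cells with at least 1000 genes, an alternative added after the data had been seen, the log2 values were 5.00 for GRE1, 1.62 for HSP12 and 3.18 for SPI1, and SIP18 again had 0 reads in the isotonic cells. The intervals for shares of cells, here and elsewhere, take each cell as a separate draw. No separate cultures are named, so they do not cover differences between cultures. Intervals for summed reads take each read as a separate count, which PCR reads without molecular identifiers are not.

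In AAS cells GRE1 was the only one of the 4 to differ by 2-fold from isotonic cells of batch 1. Of 5825 genes tested there, 43.2% were higher by 2-fold or more and 13.8% lower, and 1 of the 4 genes was higher and 0 lower. GRE1 had a read in all 18 AAS cells, at 1.62, 426 and 2684 CPM for the lowest, the median and the highest, and in 7 of 16 isotonic cells, at 0, 0 and 192 CPM. In AAS cells 14 of 18 were above 100 CPM, and D93X (1.62 CPM) was the one cell that fell among the low isotonic cells, while A7 (192) and G50 (107) were the high isotonic cells. The groups overlapped, with 11 of 18 AAS cells above A7. The means were 569.6 ± 665 (SD, n = 18) and 20.4 ± 52.9 CPM (SD, n = 16), 27.9-fold apart (log2 4.74, place 60 of 5825), and the AAS cell was higher in 94.8% of pairs, against 5.25% of genes that reached 90%. The share of pairs was higher for 84 genes, 1.44% of those tested.

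The median log2 value of all genes tested in AAS was 0.74, and GRE1 lay 3.99 above it. With summed reads, in which the deep cell A7 (55179414 reads) weighs most, the log2 value of GRE1 was 3.27, and with DESeq2 size factors on those sums it was 2.34, with the median of all genes at 0.01. The split of higher and lower genes moved with the scaling too, to 27.9% and 25.7% with TMM and to 26.3% and 26.99% with DESeq2 size factors. G36, an isotonic cell that the study left out, had 169 CPM, and with it the log2 value was 4.24. In the 10 AAS and 5 isotonic cells with at least 5000 genes, GRE1 ran from 32.3 to 1156 CPM in AAS and from 0 to 13.5 CPM in isotonic cells, with no overlap (log2 6.64). Thinned to 100000 reads, it had a read in 90.0% of 20 AAS cells (68.3 to 98.8%) and in 26.3% of 19 isotonic cells (9.15 to 51.2%).

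**Figure D2:**
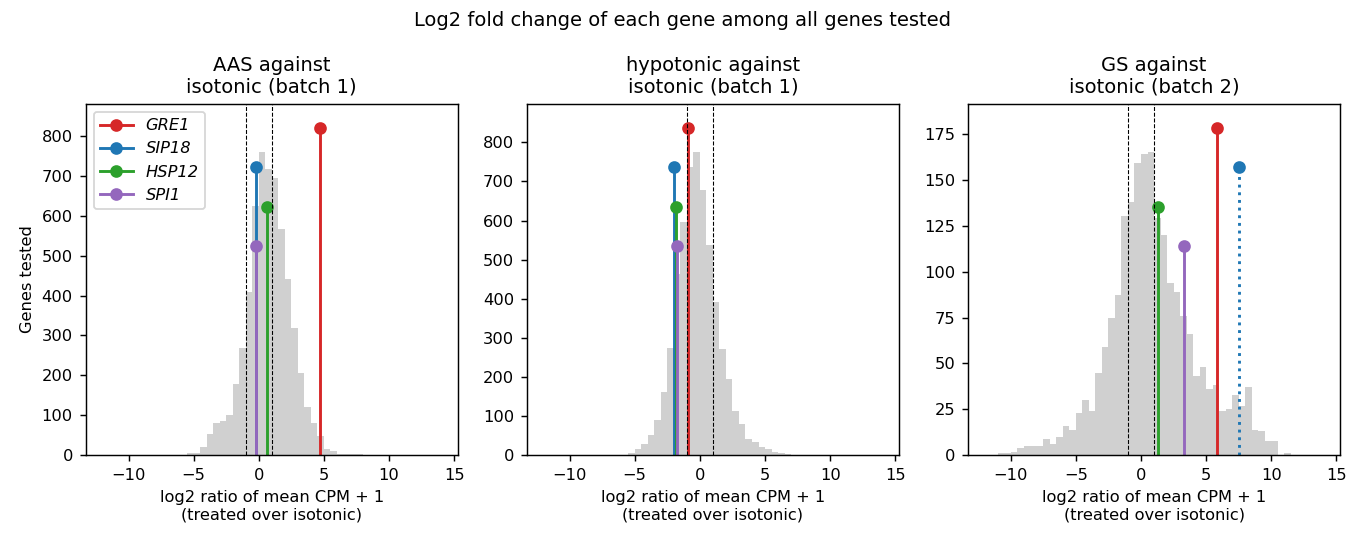
Log2 fold change of the 4 genes (coloured lines) and of all genes tested (grey histogram) in each comparison, as the log2 ratio of mean CPM + 1 of treated over isotonic cells, with dashed lines at 2-fold and the heights of the coloured lines set only to keep them apart. The dotted SIP18 line in GS rests on 0 isotonic reads and on the 1 CPM added. GRE1 stood at 4.74 in AAS and 5.83 in GS.

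SIP18, HSP12 and SPI1 did not follow GRE1 in AAS by this measure. SIP18 was found in more AAS cells, 13 of 18 against 4 of 16, but at 23.8 CPM or less, and its log2 fold change was -0.25. That value was set by A25, an isotonic cell at 85.9 CPM that held 959 of the group's 978 reads, the next highest being at 0.643 CPM; without A25 it was 2.32. At 100000 reads the share of cells with a SIP18 read was 10.0% in AAS (1.23 to 31.7%) and 10.53% in isotonic cells (1.30 to 33.1%), so that no difference was detectable at this depth. HSP12 ran from 930 over 2101 to 5613 CPM in AAS and from 21.1 over 1332 to 6321 CPM in isotonic cells. Its means were 2507 ± 1228 (SD, n = 18) and 1592 ± 1589.8 (SD, n = 16), a log2 value of 0.66, which was -0.50 with TMM and -0.58 with DESeq2 size factors. HSP12 lay 0.09 below the median of all genes and 0.59 below it with either of those scalings. Against isotonic cells named E or G its log2 value was 1.03. At 100000 reads HSP12 had a read in 20 of 20 AAS and 18 of 19 isotonic cells, and SPI1 in 17 and 11 of them.

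SPI1 had almost the same mean in AAS (139 ± 134 CPM, n = 18) as in isotonic cells (157 ± 203.98 CPM, n = 16), with a log2 value of -0.18, but its cells were spread in another way. In AAS cells 12 of 18 were above 100 CPM and 1 was at 1 CPM or less. In isotonic cells 7 of 16 were above 100 CPM, 7 at 1 CPM or less and 2 between. The SD of log2(CPM + 1) over cells was accordingly 1.99 in AAS and 3.95 in isotonic cells. HSP12 showed the same order, with 0.68 in AAS against 2.07 in isotonic cells, whereas GRE1 had 2.32 and 2.57. Isotonic cells named A carried more SPI1 than those named E or G, and the sign of the fold change of SPI1 differed between them: -0.61 against isotonic cells named A, and 0.68 against those named E or G. It was past 2-fold with TMM (-1.303), with DESeq2 size factors (-1.39) and in cells with at least 5000 genes (-1.06), and 1.89 on medians.

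Hypotonic cells had lower means of HSP12 and SPI1 than isotonic cells, while GRE1 and SIP18 were nearly absent from most cells of both groups. Of 5600 genes tested, 21.2% were higher by 2-fold or more and 30.1% lower (26.8% and 25.8% with DESeq2 size factors), and 0 of the 4 genes were higher and 3 lower. The same isotonic cells served for AAS and hypotonic cells. HSP12 ran from 0 over 360 to 2281 CPM in the 12 hypotonic cells, where only F55X (2281) lay above the isotonic median of 1332. The means were 451 ± 616 (SD, n = 12) and 1592 ± 1589.8 CPM (SD, n = 16), a log2 fold change of -1.82, and the hypotonic cell was the higher one in 21.9% of pairs, against 7.93% of genes with 30% or less. The median log2 value of all genes was -0.26, and HSP12 lay below it under each scaling. F20X, F22X and F23X had 0 HSP12 reads, and with 1899, 1482 and 1634 genes they were also the hypotonic cells with the fewest genes. In the 3 hypotonic and 5 isotonic cells with at least 5000 genes the log2 value was -2.08, with 328 to 650.0 CPM in the hypotonic cells and 149.8 to 6321 CPM in the isotonic cells, so those groups overlapped.

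SPI1 was at 0, 20.8 and 168 CPM for the lowest, the median and the highest hypotonic cell and at 0, 29.9 and 604 CPM for the isotonic cells. The means were 46.6 ± 57.4 (SD, n = 12) and 157 ± 203.98 CPM (SD, n = 16), a log2 value of -1.73, and 6 of 16 isotonic cells lay above the highest hypotonic cell. On medians the log2 value was -0.50, and against isotonic cells named E or G -0.88, both under 2-fold. GRE1 was at 27.2 CPM in C80X and 97.04 CPM in C81X, the 2 hypotonic cells named C, and at 0.175 CPM or less in the 10 named F, 2 of which had a read. Its log2 fold change was -0.91 over all 12 hypotonic cells, -2.27 on summed reads, -2.15 with TMM and -2.08 with DESeq2 size factors. Under those 3 scalings of summed reads 4 of the 4 genes were lower by 2-fold, against 30.2%, 27.3% and 25.8% of all genes tested. For GRE1 these sums rested on A7, which held 10593 of the 11647 isotonic reads. The log2 value of GRE1 was -4.37 for the cells named F alone and 3.37 among cells with at least 5000 genes, 3 hypotonic and 5 isotonic. SIP18 was found in the same C80X (5.65 CPM) and C81X (1.52) and in no other hypotonic cell, 36 reads in all (exact Poisson 95% interval 25.2 to 49.8). Its log2 value of -2.01 rested on A25 and was 0.56 without it. At 100000 reads, HSP12 had a read in 9 of 12 hypotonic cells (42.8 to 94.5%), SPI1 in 6 (21.1 to 78.9%), GRE1 in 2 (2.09 to 48.4%) and SIP18 in 0 (up to 26.5%).

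Per kilobase, HSP12 was the most abundant of the 4 genes in each of the 5 groups, and GRE1 came nearest to it in GS cells. That order depends on the division by length. In CPM alone GRE1 was ahead of HSP12 in GS cells, with means of 13608 and 12656 and medians of 16165.5 and 8247. The study found read coverage falling toward the 5′ end of genes in all libraries, and its part in the values per kilobase was not tested. Per kilobase of reading frame, mean HSP12 was 38350.5 CPM per kb in GS cells and GRE1 26839.5, a ratio of 1.43, against 32.7 in isotonic cells of the same batch. In batch 1 the ratio was 6.76 in AAS, 119.8 in isotonic and 66.8 in hypotonic cells. GRE1 exceeded HSP12 per kb in 7 of 21 GS cells and in 0 cells of each of the other 4 groups. Among the 6019 genes with a RefSeq length, ranked by CPM per kb within a cell, GRE1 had a median rank of 2 in GS cells and was first in 6 of them, and HSP12 had a median rank of 3 and was first in 9. In AAS cells HSP12 had a median rank of 4 and GRE1 one of 136.5. In isotonic cells of batch 1 the median rank of HSP12 was 25.5, and GRE1, in the 7 cells with a read, had 2323. The 4 genes together took 2.75 ± 1.46% (SD, n = 21) of the reads on genes in GS cells and 0.541 ± 0.543% (n = 17) in isotonic cells of batch 2. In batch 1 they took 0.322 ± 0.173% (n = 18) in AAS, 0.177 ± 0.173% (n = 16) in isotonic and 0.0509 ± 0.0612% (n = 12) in hypotonic cells.

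The coefficient of variation over cells (CV, the SD over the mean) put GRE1 among the more variable of the abundant genes in AAS. Its CV there was 1.17, above that of 94.1% of the 271 genes with a mean at least as high, whose median CV was 0.564. In GS cells its CV was 0.615, and 1 gene had a higher mean. HSP12 had a CV of 0.490 in AAS, near the median of 0.456 for the 32 genes at least as high, and 0.999 in isotonic cells of batch 1, above 92.1% of 76 genes. SIP18 had the highest CV of the 4 in both: 1.47 in AAS and 3.94 in isotonic cells of batch 1, at means of 4.42 and 5.45 CPM. Of the genes at least as high, 85.9% of 5522 and 99.7% of 4968 had a lower CV. The isotonic value rested on A25, at 85.9 CPM with the next highest cell at 0.643 CPM. SPI1 had 0.967 in AAS and 1.39 in GS, where 29.3% of 181 genes at least as high had a lower CV.

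**Figure D3:**
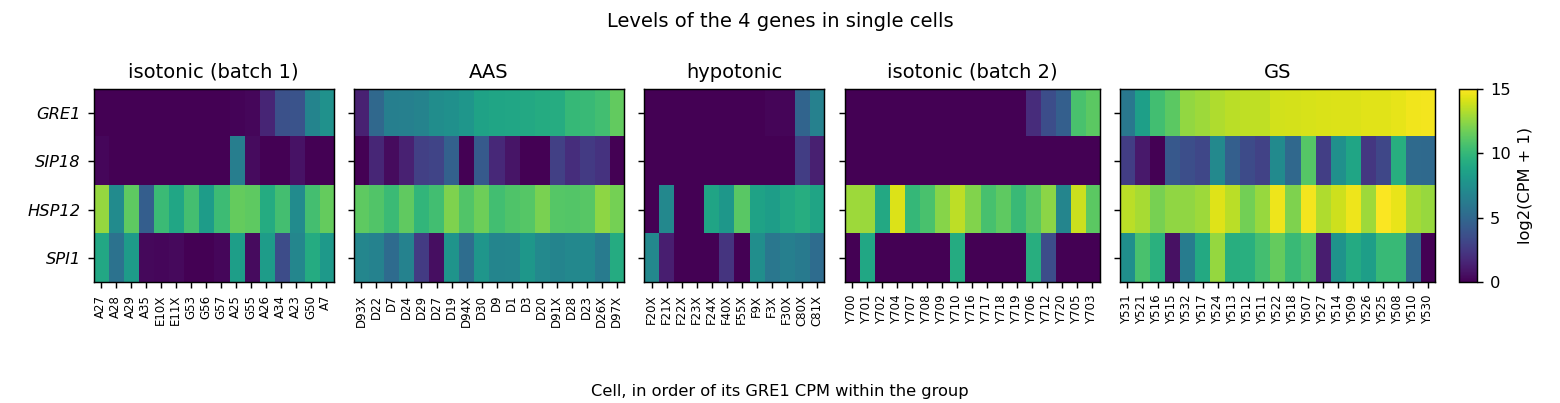
Level of each gene (rows) in each of the 84 cells (columns) as log2(CPM + 1), with the cells of a group in the order of their GRE1 level. GRE1 was above 100 CPM in 2 of 16 isotonic cells of batch 1, 14 of 18 AAS, 0 of 12 hypotonic, 2 of 17 isotonic cells of batch 2 and 20 of 21 GS cells.

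Within GS cells SIP18 went with GRE1 and HSP12, and SPI1 did not go with GRE1. Spearman's rho over the 21 GS cells was 0.48 for GRE1 and SIP18, 0.48 for SIP18 and HSP12, 0.34 for GRE1 and HSP12 and -0.16 for GRE1 and SPI1. The 6 GS cells above 100 CPM of SIP18, named after their values were seen, had HSP12 levels of 27419 (Y507), 23489 (Y508), 25385 (Y509), 14856 (Y514), 25266 (Y522) and 20017 CPM (Y524). Only Y525, at 30221 CPM of HSP12 and 8.28 CPM of SIP18, was as rich in HSP12 with little SIP18. At the other end Y530 had the highest GRE1, 27569.7 CPM, and 0 reads of SPI1. Within AAS cells rho was 0.61 for HSP12 and SPI1, 0.50 for GRE1 and SPI1, 0.41 for GRE1 and HSP12 and 0.00 for GRE1 and SIP18 (n = 18). Cells of a group share a treatment and differ in depth, and these values describe the cells measured.

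**Figure D4:**
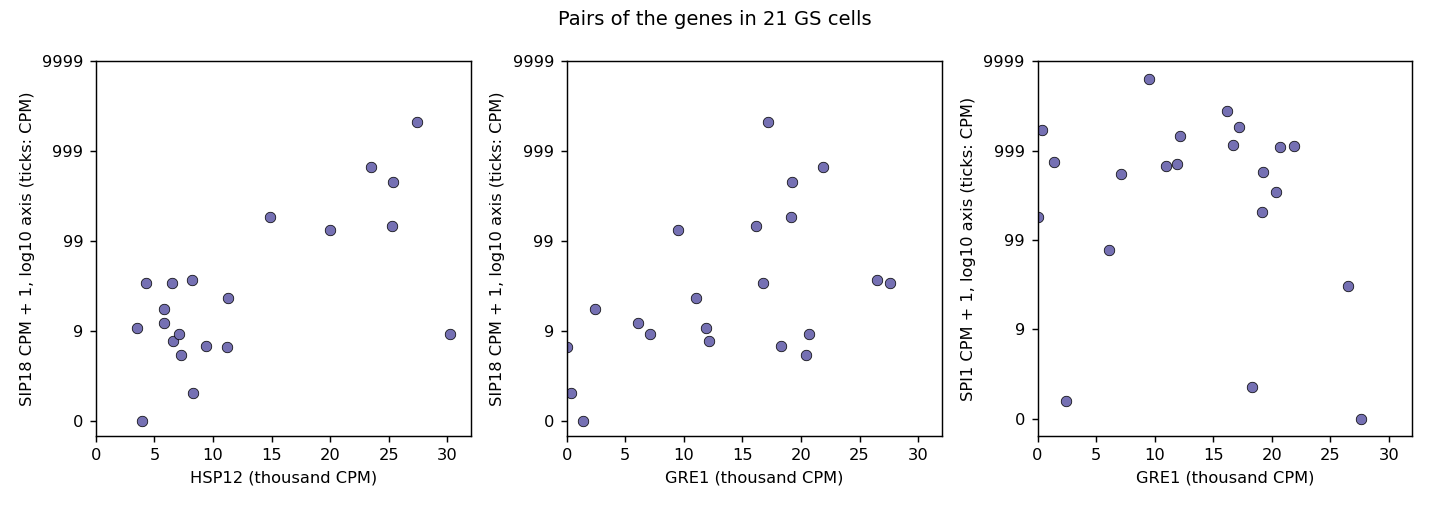
Pairs of the genes in the 21 GS cells, 1 point per cell, with HSP12 or GRE1 in units of 1000 CPM on the linear x axis and SIP18 or SPI1 on a log10 axis of CPM + 1. The cells with SIP18 above 100 CPM lie at 14856 to 27419 CPM of HSP12, and Spearman's rho was 0.48, 0.48 and -0.16 from left to right.

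The genes most like each member were listed by Spearman's rho of CPM, which also carries the differences between groups and in depth. Over the 38 cells of batch 2 (2106 genes), the gene most like GRE1 was its paralog SIP18 (0.85), followed by ALD3 (0.82) and ACS1 (0.82), which encode an aldehyde dehydrogenase and an acetyl-CoA synthetase, and by CTT1 (0.81), the cytosolic catalase, and YAT1 (0.80), a carnitine acetyltransferase. For SIP18 they were FMP16 (0.90), ICL1 (0.86), GRE1 (0.85), JEN1 (0.82), the lactate transporter gene, and TMA10 (0.79). For HSP12 they were TMA10 (0.73), STF2 (0.64), itself a hydrophilin gene, FMP16 (0.64), SIP18 (0.62) and YNL195C (0.61). SPI1 was most like STL1 (0.71), the glycerol symporter gene, then FMP16 (0.70), the hexose transporter gene HXT5 (0.69), PDC6 (0.69) and TRM12 (0.69). A rho above 0.5 was reached by 4.75% of genes for GRE1, 5.23% for SIP18, 1.47% for HSP12 and 3.66% for SPI1.

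Over the 46 cells of batch 1 (5781 genes) GRE1 and SIP18 were less close, at 0.54, and SIP18 was at place 758 among the genes most like GRE1. GRE1 was most like EMA35 (0.81), RAD59 (0.81), snR17a (0.80) and YNL092W (0.79), and SIP18 most like DSE3 (0.85), YOL085C (0.81), RAD28 (0.78), PSY3 (0.77) and GLD1 (0.76). Both were also related to the number of genes with a read, GRE1 at 0.53 and SIP18 at 0.64, and 20.3% and 18.9% of all genes exceeded 0.5 with them. HSP12 (0.22 with the number of genes) was most like HOR7 (0.79), SNC1 (0.74), FMP16 (0.72), POB3 (0.69) and the trehalose synthase gene TPS1 (0.68), and 2.96% of genes exceeded 0.5. SPI1 was most like CTT1 (0.73), AHC2 (0.71), POB3 (0.71), YJR096W (0.70) and SOL4 (0.69), with 3.51% of genes above 0.5.

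Other hydrophilin genes differed from one another. YJL144W (ROQ1) was at 85.5 ± 71.8 CPM in AAS against 15.8 ± 37.1 in isotonic cells (log2 2.36), at 41.1 ± 54.3 CPM in hypotonic cells (log2 1.32) and at 120.0 ± 295 CPM in GS cells against 0 reads in the isotonic cells of batch 2. STF2 was within 2-fold of isotonic cells throughout, with log2 values of 0.54 in AAS, 0.25 in hypotonic and 0.74 in GS cells. YNL190W was lower in hypotonic (log2 -1.07) and higher in GS cells (2.58). In all, 1 of 4 other hydrophilin genes was at least 2-fold higher in AAS, against 43.2% of all genes tested. In hypotonic cells 1 of 4 was higher and 1 of 4 lower, against 21.2% and 30.1%. In GS cells 2 of the 3 tested were higher, against 44.1%, and YJL144W, with 0 isotonic reads, could only be higher there. With DESeq2 size factors 0 of the 4 were higher and 2 lower in AAS, and 0 were higher in hypotonic cells.

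The general stress genes, 34 genes of the Msn2 and Msn4 response, were for the larger part higher in GS and, by mean CPM, in AAS. The study named GRE1 and other stress genes from these same cells, so the list is not independent of them. Of all genes tested, 43.2% were higher and 13.8% lower in AAS, 44.1% and 26.2% in GS, and 21.2% and 30.1% in hypotonic cells. In AAS 23 of 34 were higher by 2-fold or more and 0 lower, with a median log2 value of 1.18 against 0.74 for all genes tested, but with DESeq2 size factors 11 were higher and 2 lower, with a median of 0.38 against 0.01. MOH1 (3.24), the trehalase gene NTH1 (3.18), TFS1 (2.91) and PHM7 (2.81) were the largest of them. In GS 24 of the 31 tested were higher and 1 lower (median 2.14 against 0.64), led by the disaggregase gene HSP104 (7.09, and 2.58 without the highest cell), PHM7 (5.81), TMA10 (5.64) and DDR2 (5.46). HSP104, PHM7 and DDR2 had 11, 1 and 2 isotonic reads in all. They passed the filter through their GS cells, so once tested they could hardly be lower. In hypotonic cells 2 of 34 were higher and 13 lower (median -0.59 against -0.26), with CTT1 (-3.205), ALD3 (-3.00), YGP1 (-2.04) and the trehalose synthesis gene TSL1 (-1.94) lowest. Of 6 osmostress genes, 5 were lower in hypotonic cells, among them GPP2 (-2.54), which encodes glycerol-3-phosphate phosphatase, DAK1 (-2.38), GRE2 (-2.31) and the sodium pump gene ENA1 (-1.37). In AAS 3 of 6 were higher, STL1 (6.66) most. In GS 3 were higher and 1 lower, STL1 at 3.92 (11.2 with each group's top cell left out) and the glycerol synthesis gene GPD1 at -1.98. With DESeq2 size factors 1 of 6 was higher in AAS.

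Among the regulators, MSN2 was at 67.8 ± 75.3 CPM in AAS against 4.14 ± 7.36 in isotonic cells (log2 3.74) and at 10.7 ± 19.3 in hypotonic cells (1.18). MSN4 had log2 values of 1.11 in AAS and -1.91 in hypotonic cells, and in GS cells both had too few cells with a read to be tested. HOG1, the kinase of the osmolarity pathway, was within 2-fold in AAS (0.28) and hypotonic cells (0.04) and lower in GS (-1.35). Of the 14 regulators, 9 were higher and 0 lower in AAS (median 1.33), RIM15 (3.37) and HSF1 (2.38) next to MSN2. Of all genes tested in AAS, 43.2% were higher and 13.8% lower (median 0.74). In hypotonic cells 3 regulators were higher, RIM15 (3.41) most, and 3 lower, TPK3 (-3.61), GIS1 (-2.02) and MSN4 (median 0.04). These counts were near the shares of all genes, 21.2% higher and 30.1% lower (median -0.26). In GS cells 5 of the 6 regulators tested were higher and 1 lower (median 3.07), against 44.1% and 26.2% of all genes (median 0.64). GIS1 (6.26), BCY1 (3.69) and TPK2 (2.50) were among the higher. With each group's top cell left out GIS1, with 2 isotonic reads in all, was at 4.89, BCY1 at 8.61 and TPK2 at 6.56. With DESeq2 size factors 6 were higher and 1 lower in AAS. Of 5 other wall protein genes with a GPI anchor, 0 were higher by 2-fold in any comparison by mean CPM, although all 5 were in GS per ERCC read, where the median of all genes was 3.07, and 3, 2 and 1 were lower in AAS, hypotonic and GS cells, CCW12 in all of them, at -1.25, -1.96 and -1.17.

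**Figure D5:**
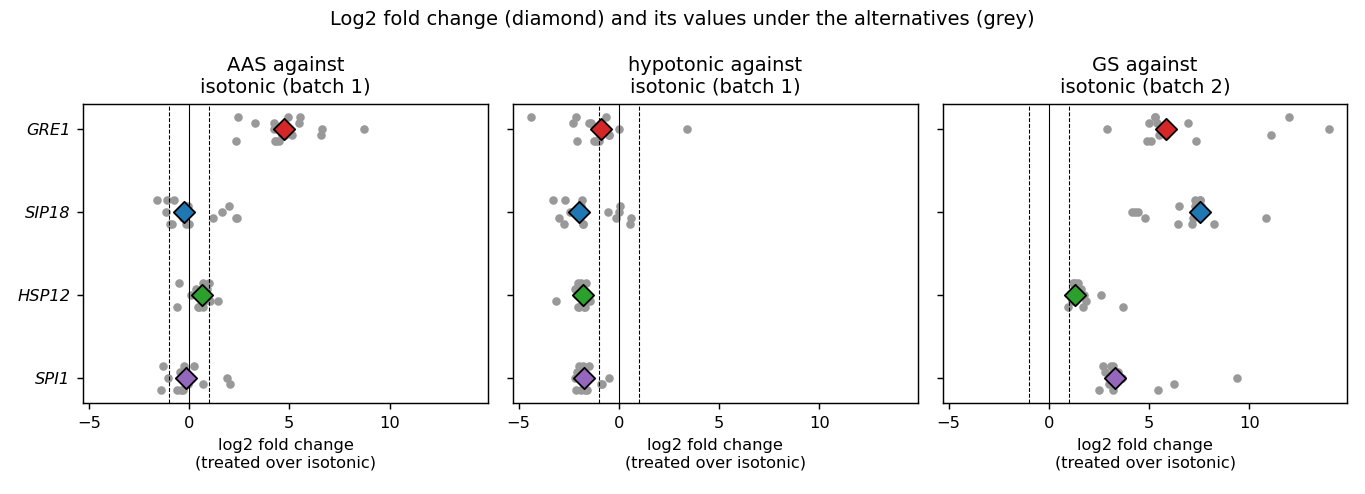
Log2 fold change of each gene in the 3 comparisons (diamonds) and its values under the alternative settings (grey points), with dashed lines at 2-fold. GRE1 stayed between 2.34 and 8.74 in AAS and between 2.92 and 13.98 in GS, while SIP18 in AAS and in hypotonic cells crossed 0.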

How the data were processed

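Full-length cDNA of 117 single spheroplasts was sequenced. Per the labels, the authors aligned the reads with STAR 2.5.2, and HTSeq at its default settings, its version not given in the sources used here, gave the deposited read counts per gene of the R64 reference. The labels also name RSEM 1.2.31. Reads on the 92 ERCC entries and on rows that name no gene (2.59 to 76.7% of gene and tally reads) were left out. Counts were scaled to CPM. Treated and isotonic cells of 1 batch were compared by the log2 of their ratio of mean CPM + 1. Shares of cells carry exact Clopper-Pearson 95% intervals and summed reads exact Poisson intervals. No test was run, since each group is 1 sample. The measures were tried on simulated counts with planted changes and the same set spread for every gene. The wider spread of genes such as SIP18 was not mimicked, so the trial does not show how the measures fare for them. Alternatives were other pseudocounts, medians, thinning to 100000 reads, summed reads with TMM or DESeq2 factors, ERCC scaling, no read filter and other cell sets. The list rule named up to 4 genes per list by size of change without the highest cell, and 5 like genes per member and batch. One gene that this rule named is not reported here. The genes and lists (general stress, osmostress, other hydrophilins, regulators, GPI wall proteins, mating type markers, treatment checks) were chosen with earlier results of these data known. Which cells the study kept was taken from its tables. Protein composition came from translated R64 reading frames. Tools were Python 3.11.15, NumPy 2.4.6, SciPy 1.17.1, pandas 2.3.3, matplotlib 3.10.9, Biopython 1.88, R 4.3.3, edgeR 4.0.16 (TMM) and DESeq2 1.42.0 (size factors).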

Additional observations from a re-analysis of the deposited data

Results flagged for a closer look

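Some of the cells that the study left out carried 1 or more of the 4 genes above the highest isotonic cell it kept. Among the 2 left-out AAS cells, GRE1 exceeded that level in 1, at 677 CPM against 192, and SIP18, HSP12 and SPI1 in 0. Of the left-out cells of GS, 12 had 10000 reads or more, 6 named Y5 with 334 to 801 genes and 6 named Y2 with 15795 to 290386 reads. Among them GRE1 exceeded the highest isotonic cell in 2, Y505 (4522 CPM) and Y210 (8447), and was at 0 in 4. SIP18 had a read in 3 of these 12 cells, against 0 in isotonic cells. HSP12 exceeded the isotonic maximum of 18787.5 CPM in 3, all named Y2, the highest at 68629 CPM in a cell of 15795 reads, and SPI1 exceeded 675 CPM in 6.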

How the results depend on the processing

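Of 192 log2 fold changes under alternative settings, 169 moved by less than 1 SD of log2(CPM + 1) over cells. That SD was 1.33 to 3.63, a spread between cells and not an error of the fold change. A value could change sign within it, as HSP12 in AAS did, from 0.66 to -0.58. Of 66 other values 62 stayed close by a rule for their kind. The rule was 1 SD between cells for mean CPM, the exact interval for shares of cells, and 1.5 times for counts of genes. Settings added after the data had been seen were the cells with at least 5000 or 1000 genes, G36 added, and A25 or Y703 and Y705 left out. GRE1 stayed over 2-fold higher under all 17 alternatives in AAS (2.34 to 8.74) and all 15 in GS (2.92 to 13.98, lowest for the GS cells named Y2), and SPI1 did so in GS under all 15. SIP18 did too, but with 0 reads in every isotonic cell of batch 2 it could only be higher in GS, whatever the setting. HSP12 stayed over 2-fold lower in hypotonic cells under all 16. On medians, GRE1 was 8.74 in AAS and 13.98 in GS, SIP18 1.65 in AAS, 0 in hypotonic and 4.15 in GS cells, and SPI1 9.38 in GS. Without the highest cell of each group, SIP18 was 1.98 in AAS and 0.074 in hypotonic cells. Against isotonic cells named E or G it was 2.37 in AAS and 0.60 in hypotonic cells, and without A25 it was 2.32 and 0.56, since A25 held 959 of 978 isotonic reads. With a pseudocount of 10 CPM, SIP18 was -0.54 in hypotonic and 4.29 in GS cells, and with 0.1 CPM 10.86 in GS. As a difference of mean log2(CPM + 1), SIP18 was -0.15 in hypotonic and 4.79 in GS cells, and GRE1 11.1 in GS. GRE1 in hypotonic cells was -4.37 for cells named F and 3.37 for cells with at least 5000 genes. In GS, GRE1 was 11.98 without Y703 and Y705, SIP18 4.47 in cells named Y2, and HSP12 3.69 per ERCC read. With no filter on reads, 2279 genes in place of 929 were at least 2-fold higher in GS and 1493 in place of 551 lower. Where no value is given for it, the cause was not tested. No paired analysis was possible because the cells of different groups carry no shared culture or pair, and each group counts as 1 sample.

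Depth limited batch 2 most, where isotonic cells had as few as 14245 reads. A 0 there is a count of 0 at that depth. Per-cell exposure times were not used, and the batch of the GS cells differs from that of the AAS and hypotonic cells, so that starvation and batch cannot be told apart between them.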

Other observations

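The paralogs GRE1 and SIP18 had unequal levels wherever both were read. Per kilobase of reading frame, mean GRE1 was 61.0 times mean SIP18 in AAS cells, 34.7 times in GS cells, 8.22 times in hypotonic cells and 1.77 times in isotonic cells of batch 1, where A25 held 98.1% of the SIP18 reads. Of the 39 cells with a SIP18 read, 38 also had a GRE1 read. For 13 AAS and 20 GS cells this had to be so, because all 18 AAS and all 21 GS cells had a GRE1 read. In isotonic cells of batch 1, 3 cells had both and 1 had SIP18 alone. Of those with both, SIP18 was the higher in A25 (358 against 0.177 CPM per kb) and G55 (1.50 against 0.355). GRE1 was the higher in A23 (26.6 against 2.68). In hypotonic cells 2 had both and 0 had SIP18 alone.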
